A study of Mus musculus with 30 samples.

Results

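Ly6c2, F13a1, Clec12a, Ly86, Csf1r, Ccr2, Lyz2 and Klf4 are genes that mouse blood progenitors switch on as they turn toward monocytes. The 8 genes were taken by symbol from the 24421 genes listed in the RNA-seq tables. The data came from multipotent progenitors, bone marrow cells between blood stem cells and committed lineages, sorted by flow cytometry as MPP3 (known for myeloid output) or MPP4 (known for lymphoid output). Mice were labelled KOiMOS or WTiMOS, and from each the cells called T1 and T2 were sequenced, in a study of what the repressor Bcl11a does inside these cells and what its overexpression does in wild-type MPP3. The genotype label joins mouse and cell, as in KOiMOS_T1. The 10 groups of 3 libraries were T1 and T2 of KOiMOS MPP3 at 3 months, of WTiMOS MPP3 at 3 and 24 months, and of WTiMOS MPP4 at 3 and 24 months, 30 libraries in 5 tables. The labels used here do not give the alleles behind KOiMOS and WTiMOS, the driver of any recombinase, which of T1 and T2 carries which state of Bcl11a, or how many animals stand behind a library. KOiMOS MPP3 at 24 months was not analysed here.

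Monocytes arise in the marrow from progenitors that respond to the growth factor receptor encoded by Csf1r, under transcription factors such as PU.1, Irf8 and Klf4. Monocytes leave the marrow through the chemokine receptor Ccr2, and the classical kind carries the surface antigen Ly6C, encoded by Ly6c2. RNA of such genes at low level in a multipotent progenitor is called priming, because it is seen before the cell is committed. In RNA from bulk cells, fewer cells of a type and less RNA per cell cannot be told apart.

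Positions are on GRCm38, the build the submitters' processing notes name as mm10, and all 8 members are protein coding. Ly6c2 spans chr15:75108158-75111970 on the minus strand, F13a1 chr13:36867178-37050244 (minus), Clec12a chr6:129342691-129365303 (plus), Ly86 chr13:37345208-37419036 (plus), Ccr2 chr9:124101950-124113557 (plus), Lyz2 chr10:117277331-117282321 (minus) and Klf4 chr4:55527143-55532466 (minus). Promoter sequence of RefSeq on GRCm38.p6 was matched for 7 of the 8 members, in 9 windows of 250 bases before a transcript start. The first windows of 3 genes are shown, because they overlap no exon and stand for the range of response described below: Ly6c2 and F13a1 changed in every table, and Klf4 moved least often. They are chr15:75111972-75112221, chr13:37050245-37050494 and chr4:55532476-55532725, each on the minus strand and written 5′ to 3′. Capitals mark matches to GAGGAA (a PU.1 core) and to CACCC (a KLF core) on either strand.
Ly6c2: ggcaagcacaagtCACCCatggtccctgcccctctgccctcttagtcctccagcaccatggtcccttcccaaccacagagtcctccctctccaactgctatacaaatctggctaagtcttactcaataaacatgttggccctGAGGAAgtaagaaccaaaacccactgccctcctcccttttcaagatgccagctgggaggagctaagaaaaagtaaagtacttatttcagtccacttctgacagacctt
F13a1: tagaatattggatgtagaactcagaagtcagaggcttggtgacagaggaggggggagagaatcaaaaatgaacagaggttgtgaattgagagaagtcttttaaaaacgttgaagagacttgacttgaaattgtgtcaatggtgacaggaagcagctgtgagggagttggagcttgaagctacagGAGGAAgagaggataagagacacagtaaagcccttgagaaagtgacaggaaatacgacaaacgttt
Klf4: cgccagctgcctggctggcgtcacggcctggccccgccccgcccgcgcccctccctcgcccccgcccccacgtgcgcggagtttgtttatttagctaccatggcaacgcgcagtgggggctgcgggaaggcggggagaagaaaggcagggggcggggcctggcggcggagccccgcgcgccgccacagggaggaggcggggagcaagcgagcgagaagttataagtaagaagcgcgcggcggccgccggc

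Ly6c2 held 1 GAGGAA at -108 and 1 CACCC at -237 from the start, F13a1 held 1 GAGGAA at -66, and Klf4 held neither. Over all windows of the matched members, GAGGAA stood in those of 3 genes (Ly6c2, F13a1 and Clec12a) and CACCC in those of 2 (Ly6c2 and F13a1), against 23.3% and 52.0% of 32851 RefSeq promoter windows of the same length. TGACCA, a motif known for BCL11A, was found on the reverse strand in the second windows of Ly6c2 (at -16) and F13a1 (at -10), and in 11.4% of all windows. TTGCNNAA, a C/EBP core, was found in that of Clec12a alone, at -140, and in 9.56% of all windows. The window of Clec12a lies wholly in annotated exons of Clec12a, and the second window of F13a1 lies inside the annotated gene. None of these 4 motifs matched in the windows of Ly86, Ccr2, Lyz2 and Klf4. No match overlapped another motif, the windows of Ly6c2 overlap each other, and a match describes letters only.

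Every library summed to 1e+06 TPM (a level per unit of transcript length, scaled to a fixed total), so the read depth is unknown. Libraries of a group correlated at r of 0.988 to 0.998 across genes on the log2 scale, and 10519 to 12008 genes reached 1 TPM. Bcl11a itself was 70.3 TPM in T1 and 68.2 in T2 of the libraries labelled KOiMOS, so no loss of its RNA was seen there. On deposited TPM Bcl11a was higher in T2 of all 4 WTiMOS tables, by log2 0.71 to 1.73. Of the markers used to sort progenitors, Kit, Cd34, Cd48 and Flt3 were found in every group (lowest group mean 19.9 TPM, for Flt3), and Slamf1 stayed at or below 2.55 TPM. Flt3, the receptor that sets MPP4 apart, was 116 to 196 TPM in MPP4 groups but also 146 in T2 of WTiMOS MPP3 at 3 months. The Y-linked genes Eif2s3y, Ddx3y, Kdm5d and Uty summed to 0 TPM in T1 of WTiMOS MPP3 at 24 months and of MPP4 at 3 months and to at most 0.184 in T1 of MPP4 at 24 months, against 54.0 to 169 in the T2 libraries beside them. In the other tables the sum was 110 to 114 TPM in T1 and 55.3 to 61.2 in T2 of KOiMOS, where all 4 genes were called lower, and 64.2 to 78.9 and 33.8 to 58.5 in WTiMOS MPP3 at 3 months. Xist, the RNA of the inactive X chromosome, was 60.8 to 105 TPM in the T1 groups with Y-linked sums near 0 and 18.03 to 40.47 in all other groups. The labels do not say that T1 and T2 come from the same animals or from 1 sex, and the part of this in the results was not tested. Where T1 had Y-linked sums near 0 and T2 did not, the T2 against T1 step cannot be told apart from a difference of sex or animal.

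Levels differed widely among the members. Lyz2, the lysozyme of myeloid cells, was high everywhere, from 319.5 ± 10.01 TPM in KOiMOS T2 to 1114 ± 42.5 in T1 of WTiMOS MPP3 at 3 months (SD, n = 3, as for every group mean below), a 3.49-fold span. F13a1, the A subunit of coagulation factor XIII, spanned 939-fold, from 0.207 ± 0.0442 TPM in T2 of MPP4 at 3 months to 194 ± 30.8 in T1 of MPP3 at 3 months. Ly6c2 spanned 160-fold, Ccr2 50.4-fold, Csf1r 35.8-fold, Clec12a 35.8-fold, Ly86 22.9-fold and Klf4 10.9-fold. Tables were made separately, so order across them is a description with no test.

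**Figure D1:**
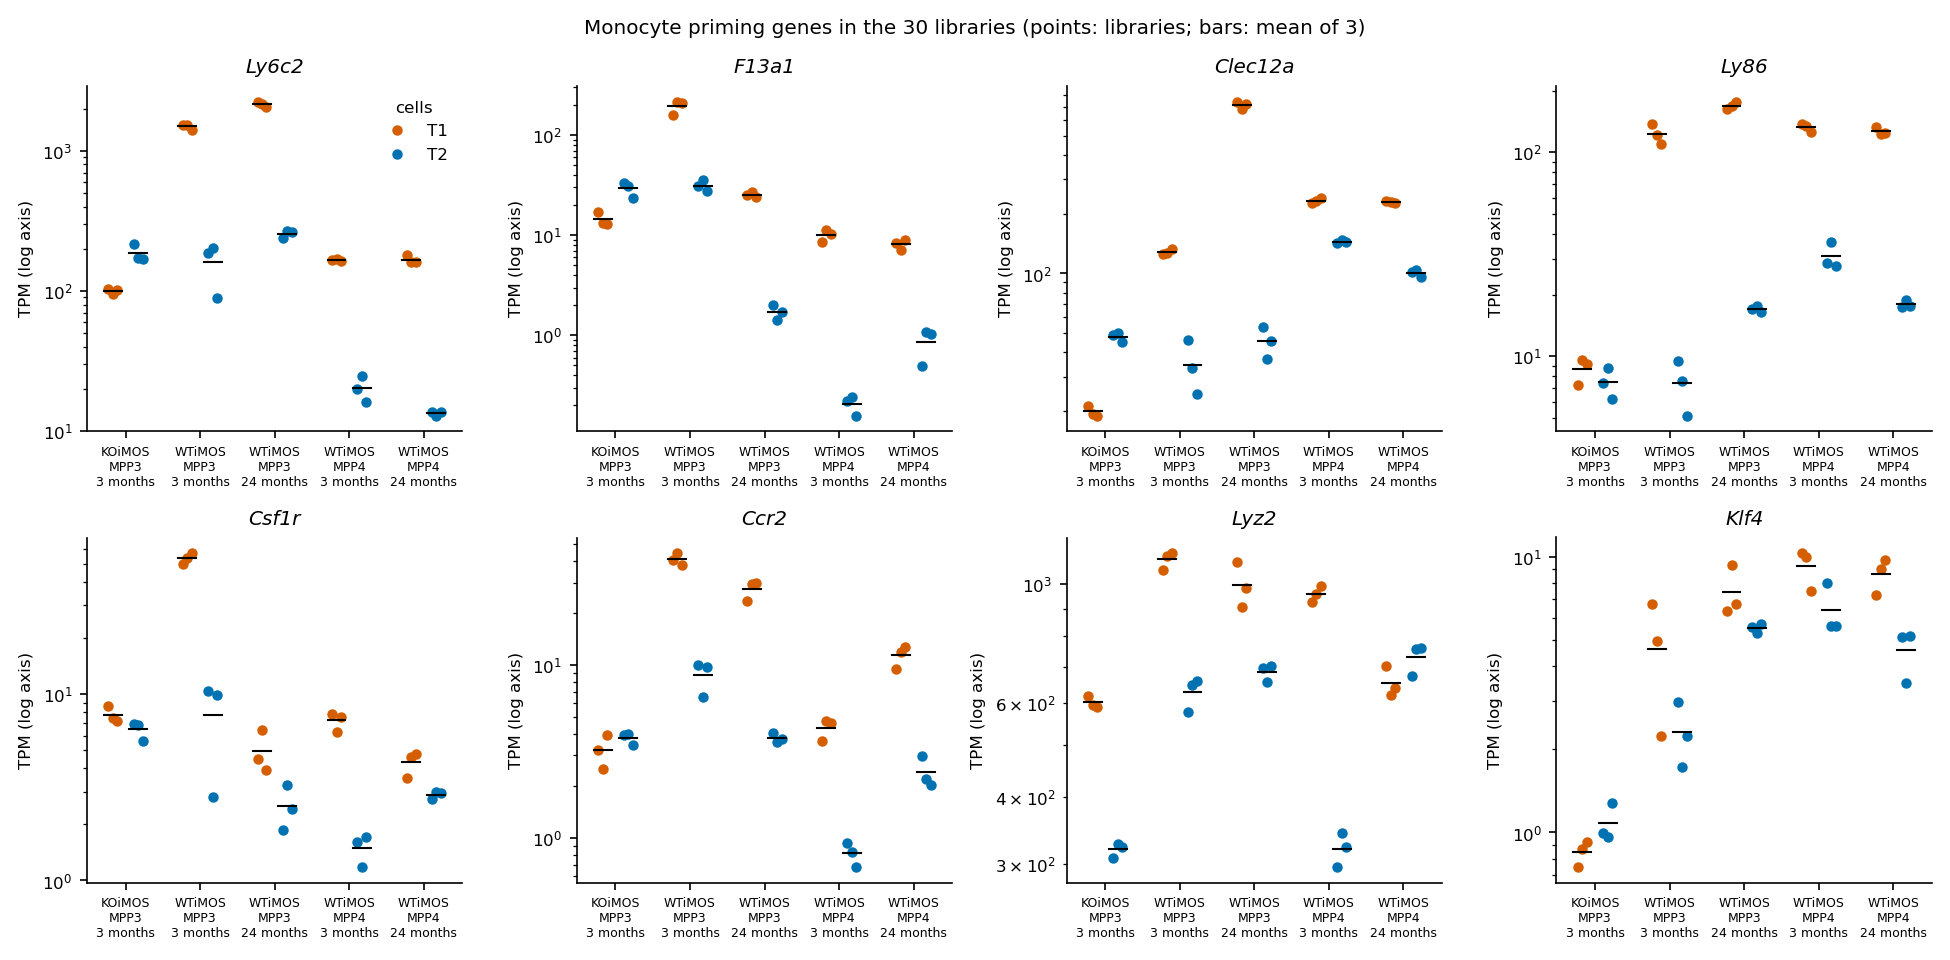
TPM (log axis) of each monocyte priming gene in the 30 libraries, T1 in orange and T2 in blue, with a bar at the mean of 3 libraries. In the 4 WTiMOS tables Ly6c2, F13a1, Ly86 and Ccr2 have all T1 points above all T2 points, and in KOiMOS MPP3 the T2 points of Ly6c2, F13a1 and Clec12a lie above T1.

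The group at the top was a T1 group of WTiMOS cells for all 8 members, though not the same one. Ly6c2 was highest in T1 of MPP3 at 24 months (2149 ± 100.1 TPM) and then at 3 months (1494 ± 71.5), apart from each other and from the rest. A run of 5 groups of Ly6c2 followed between 100.4 and 186 TPM in which each overlapped its neighbour, after T2 of MPP3 at 24 months (257 ± 14.1). Clec12a, an inhibitory lectin receptor of myeloid cells, was also highest in T1 of MPP3 at 24 months (714 ± 32.9 TPM), ahead of the T1 groups of MPP4 at 3 and 24 months (233 ± 6.79 and 230 ± 2.72, overlapping). Ly86, the secreted partner of the Toll-like receptor relative Cd180, was 123 to 169 TPM in all 4 WTiMOS T1 groups and 7.39 to 31.0 in all other groups. Csf1r (chr18:61100598-61132149, plus strand) stood out in 1 group, T1 of MPP3 at 3 months (53.7 ± 3.50 TPM). The other 9 groups of Csf1r lay at 7.77 TPM or below. Ccr2 was highest in T1 of MPP3 at 3 months (41.0 ± 3.32) and 24 months (27.5 ± 3.56), which did not overlap. Klf4, a zinc finger factor needed for monocyte formation, was low throughout, at most 9.243 ± 1.502 TPM (T1 of MPP4 at 3 months), and its 7 highest groups each overlapped the next.

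Members did not share a single pattern over the 10 groups. On group means of log2(TPM + 1), Pearson's r was 0.89 for Clec12a and Ly86, 0.89 for F13a1 and Csf1r and 0.88 for Ly6c2 and Ccr2, but 0.01 for F13a1 and Clec12a and -0.31 for F13a1 and Klf4. These r describe 10 groups that come in T1 and T2 pairs from shared tables. Among 10175 genes, the most alike in pattern to Ly6c2 were Trem3, Hp and Ptgr1 (r = 0.94, 0.93 and 0.92), and to Ccr2 Dram1, Trem1 and Clec5a (0.96, 0.93 and 0.93). Those most like F13a1 included Slfn2 and Mtus1 (0.98 and 0.96), and like Csf1r Tifab, Serpinh1 and Kcnip3 (0.96, 0.94 and 0.94). Clec12a was nearest to Mgst2, Cst7 and Spp1 (0.95, 0.94 and 0.93), and Ly86 to Ifitm6, Nfil3 and Ms4a4c (0.96, 0.94 and 0.93). Klf6, Ms4a4b and Dyrk2 were nearest to Lyz2 (0.92, 0.92 and 0.91), and Ddit3, Ssna1 and Cdkn3 to Klf4 (0.97, 0.96 and 0.96).

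T1 and T2 cells of WTiMOS MPP3 at 3 months were compared first. T2 cells held less RNA of 7 of the 8 members, where 14.3% of 11723 genes were called, 5.96% lower and 8.39% higher, and the members' median was log2 -2.36 against 0.10 over all genes. Ly86 led, followed by Ly6c2, Csf1r, F13a1, Ccr2, Clec12a and Lyz2. Klf4 did not pass the test. A gene is called where limma's p on log2(TPM + 1), adjusted by Benjamini and Hochberg over all genes tested in the table, is under 0.05.

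Among surface and secreted antigens, Ly86 was 138, 121 and 110 TPM in the T1 libraries and 9.50, 7.54 and 5.13 in T2. The groups were far apart, and the step was log2 -3.91 ± 0.20 (SE, adjusted p = 1.16e-07), the 8th lowest of all genes. Ly6c2 was 1532, 1540 and 1412 TPM in T1 and 187, 204 and 89.0 in T2, with the third T2 library well below the other pair. Its step was log2 -3.30 ± 0.36 (adjusted p = 0.00775), and without that library -2.93. Leaving out any T1 library instead kept the call of Ly6c2 only narrowly (adjusted p 0.0375 to 0.04995). Clec12a was 126, 126 and 134 TPM in T1 and 46.0, 33.0 and 24.6 in T2 (log2 -1.91 ± 0.18, adjusted p = 1.62e-05).

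Both receptors of monocyte growth and migration fell as well. Csf1r was 50.2, 53.8 and 57.2 TPM in T1 and 10.4, 2.82 and 9.86 in T2, the second T2 library being the lowest. The step of Csf1r was log2 -2.81 ± 0.34 (adjusted p = 0.000223), and -2.29 without that library. Ccr2 was 40.8, 44.4 and 37.8 TPM in T1 and 9.97, 6.55 and 9.73 in T2 (log2 -2.12 ± 0.19, adjusted p = 1.24e-05).

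Of the enzymes, F13a1 was 159, 215 and 209 TPM in T1 and 30.8, 35.8 and 27.4 in T2 (log2 -2.59 ± 0.14, adjusted p = 1.95e-07). Lyz2 fell least, from 1065, 1132 and 1144 TPM to 576, 649 and 660 (log2 -0.83 ± 0.06, adjusted p = 2.81e-06). Klf4 was 6.72, 4.93 and 2.24 TPM in T1 and 2.97, 1.73 and 2.24 in T2, and its groups overlapped (log2 -0.69, 95% interval -1.43 to 0.05, adjusted p = 0.205). The libraries of the 7 called members did not overlap between T1 and T2, as was so for 32.9% of all genes.

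**Figure D2:**
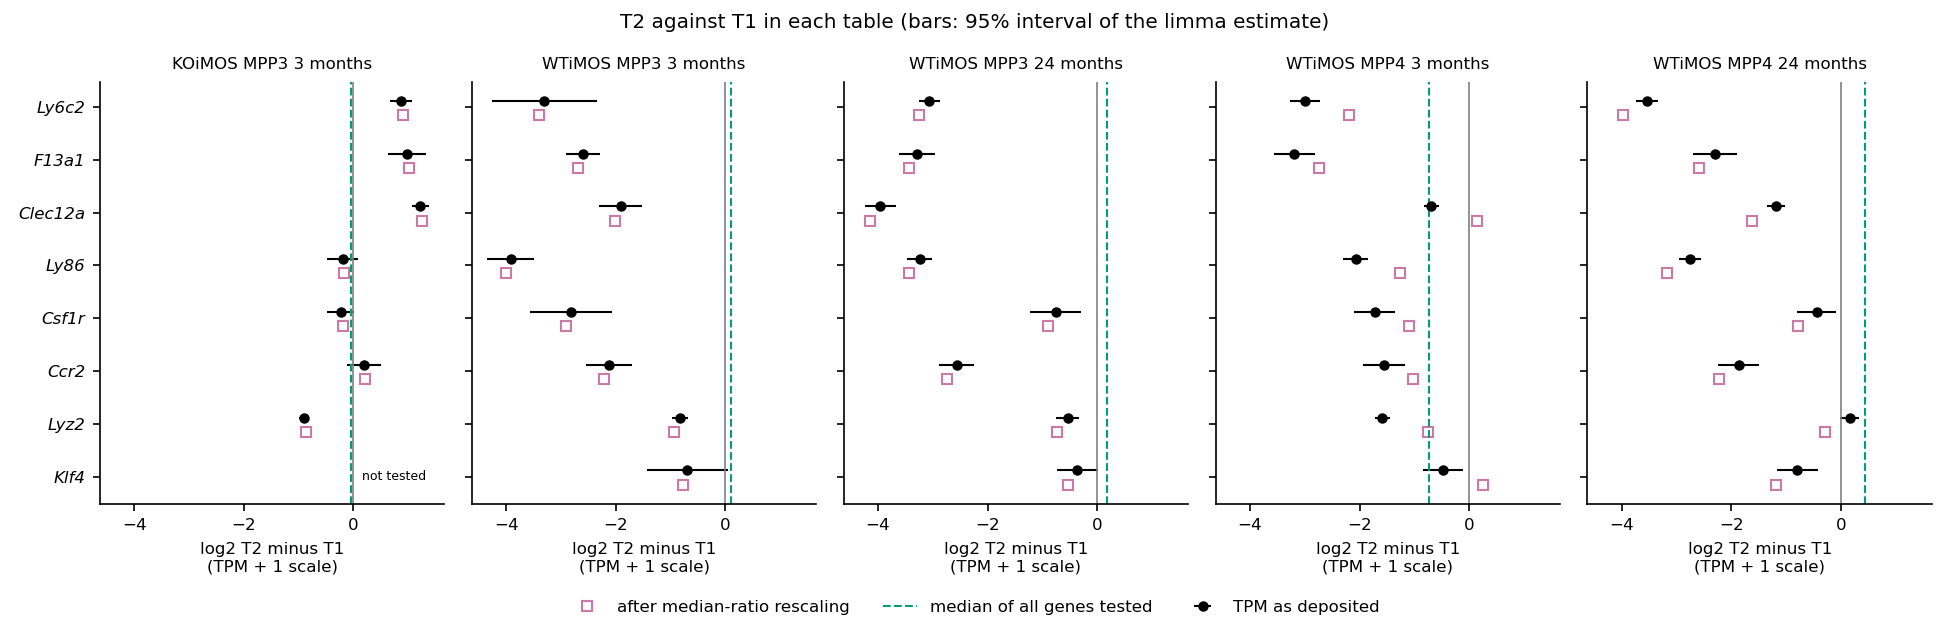
Log2 T2 minus T1 step of each member (axis in log2 of TPM + 1) in the 5 tables, with 95% intervals as black points, the step after median-ratio rescaling as open squares and the median of all genes as a dashed line. Most points lie well left of 0 in the WTiMOS tables, where Clec12a and Klf4 of MPP4 at 3 months sit near the dashed line, and Ly6c2, F13a1 and Clec12a lie right of 0 in KOiMOS MPP3.

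At 24 months in WTiMOS MPP3, the same 7 members were called lower in T2, where 42% of 11317 genes were called (12% lower and 30% higher), with a median over the 8 of log2 -2.81 against 0.18 over all genes. Clec12a had the largest fall here, from 743, 678 and 722 TPM in T1 to 53.8, 36.9 and 45.4 in T2. That is log2 -3.96 ± 0.13 (adjusted p = 1.81e-09), the 12th lowest step of the table. F13a1 fell from 25.4, 26.9 and 23.9 TPM to 2.01, 1.43 and 1.70 (log2 -3.28 ± 0.15, adjusted p = 2.95e-08).

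Ly86 was 163, 168 and 177 TPM in T1 and 17.1, 17.6 and 16.5 in T2 (log2 -3.24 ± 0.11, adjusted p = 1.81e-09). Ly6c2 was 2243, 2161 and 2044 TPM in T1 and 241, 267 and 262 in T2 (log2 -3.06 ± 0.09, adjusted p = 1.03e-09). Ccr2 was 23.4, 29.3 and 29.7 TPM in T1 and 4.07, 3.58 and 3.75 in T2 (log2 -2.56 ± 0.15, adjusted p = 2.07e-07). These 5 genes changed by log2 of over 2.5 in the same direction. Libraries of T1 and T2 did not overlap for any of the 8 members, as for 52.8% of all genes.

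Csf1r, by contrast, was already low in T1 at 24 months, with 4.50, 6.45 and 3.90 TPM against 1.87, 3.24 and 2.43 in T2. Its step passed (log2 -0.76 ± 0.21, adjusted p = 0.0143), but not without the second T1 library (adjusted p = 0.0641). Lyz2 fell by 0.54 on the log2 scale, from 1101, 906 and 987 TPM to 697, 657 and 703 (adjusted p = 0.00107). Klf4 was 6.33, 9.32 and 6.72 TPM in T1 and 5.56, 5.28 and 5.67 in T2, and did not pass (log2 -0.36, 95% interval -0.74 to 0.01, adjusted p = 0.110). It was called lower after median-ratio rescaling (log2 -0.53, adjusted p = 0.0253).

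In WTiMOS MPP4 at 3 months all 8 members were called lower in T2, but so were 72.6% of 11288 genes (81.3% called, 8.71% higher), and the median of all genes was log2 -0.74. The members' median was log2 -1.65. Dividing each library by its median ratio to the others, which puts the median gene near 0, left 6 members called lower, where 26.7% of genes then were. The members that stood far from the median gene were F13a1, Ly6c2 and Ly86.

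F13a1 was 8.55, 11.3 and 10.3 TPM in T1 and 0.219, 0.244 and 0.158 in T2, a ratio of mean TPM of 48.7. That ratio divides by values near 0. F13a1 passed the filter of at least 1 TPM in at least 3 libraries through T1 alone, so a called step could only be lower. Its log2 step was -3.19 ± 0.18 (adjusted p = 1.53e-09), the 11th lowest in the table, and -2.74 after rescaling. Ly6c2 was 165, 170 and 162 TPM in T1 and 19.8, 24.6 and 16.2 in T2 (log2 -2.99 ± 0.13, adjusted p = 1.60e-10, and -2.19 after rescaling). Neither gene overlapped between T1 and T2, as was so for 81.8% of all genes.

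Ly86 was 138, 135 and 126 TPM in T1 and 28.8, 36.4 and 27.8 in T2 (log2 -2.07 ± 0.11, adjusted p = 9.80e-10, and -1.26 after rescaling). The receptors were low in both groups: Csf1r went from 7.85, 6.30 and 7.55 TPM to 1.60, 1.18 and 1.72, and Ccr2 from 3.63, 4.77 and 4.64 to 0.938, 0.824 and 0.677. Their steps were log2 -1.72 ± 0.17 (adjusted p = 5.49e-07) and -1.56 ± 0.18 (adjusted p = 2.21e-06), and -1.10 and -1.03 after rescaling, still called. On deposited TPM Ccr2, like F13a1, passed the filter through T1 alone. Lyz2 fell from 926, 958 and 995 TPM to 296, 342 and 323 (log2 -1.58 ± 0.06, adjusted p = 1.09e-10, and -0.76 after rescaling).

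Clec12a and Klf4 turned with the scale. Clec12a was 228, 232 and 241 TPM in T1 and 143, 147 and 144 in T2 (log2 -0.69 ± 0.07, adjusted p = 3.83e-07). After rescaling it was log2 0.14 and not called (adjusted p = 0.202). Klf4 was 10.3, 9.93 and 7.52 TPM in T1 and 8.01, 5.60 and 5.61 in T2, with overlap (log2 -0.47 ± 0.17, adjusted p = 0.0208). It was 0.26 after rescaling (adjusted p = 0.179), and its call was lost when any of 4 of the 6 libraries was left out (adjusted p up to 0.0793). With a dependence on GC and length taken out it was called higher (log2 0.68, adjusted p = 0.00353).

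In WTiMOS MPP4 at 24 months 7 of the 8 members were called lower in T2, where 7% of 11366 genes were, of 65.2% called and 58.2% called higher. The members' median was log2 -1.53 against 0.43 over all genes. Ly6c2 was 181, 161 and 160 TPM in T1 and 13.7, 12.9 and 13.7 in T2, the 4th lowest step of the table (log2 -3.54 ± 0.09, adjusted p = 2.62e-09). Ly86 was 133, 124 and 125 TPM in T1 and 17.4, 19.0 and 17.7 in T2 (log2 -2.75 ± 0.09, adjusted p = 1.36e-08).

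F13a1 was 8.29, 7.12 and 8.87 TPM in T1 and 0.491, 1.08 and 1.02 in T2 (log2 -2.30 ± 0.18, adjusted p = 8.91e-06). Ccr2 was 9.546, 11.957 and 12.689 TPM in T1 and 2.99, 2.18 and 2.02 in T2 (log2 -1.87 ± 0.17, adjusted p = 1.89e-05). Clec12a was 233, 231 and 227 TPM in T1 and 101, 104 and 96.3 in T2 (log2 -1.19 ± 0.07, adjusted p = 1.37e-06). All 3 genes were apart in every library, as were 69% of all genes.

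Klf4 passed in this table, with 7.25, 9.02 and 9.70 TPM in T1 and 5.12, 3.49 and 5.15 in T2 (log2 -0.80 ± 0.17, adjusted p = 0.00259). Csf1r passed narrowly, with 3.57, 4.61 and 4.75 TPM in T1 and 2.72, 3.00 and 2.94 in T2 (log2 -0.44 ± 0.16, adjusted p = 0.0310), and lost the call in 5 of the 6 fits that left a library out (adjusted p 0.0511 to 0.111). Lyz2 was the exception, at 704, 621 and 640 TPM in T1 and 675, 756 and 762 in T2, overlapping. Its step was log2 0.16 (95% interval -0.01 to 0.33, adjusted p = 0.0878), called higher without the first T1 or the first T2 library (adjusted p = 0.029 and 0.0246) and called lower after rescaling (log2 -0.29, adjusted p = 0.0159).

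Across the 4 WTiMOS tables, which share no libraries, 6 of the 8 members (Ly6c2, F13a1, Clec12a, Ly86, Csf1r and Ccr2) were called lower in T2 in each one, as were 0.98% of the 10511 genes tested in all 4. After rescaling 6 were again lower in each, with Lyz2 in place of Clec12a, against 0.934% of genes. The members were chosen with earlier results of these data known, so these counts are a description and not a test. In each of these tables but MPP3 at 3 months, T1 had Y-linked sums near 0 and T2 did not. Reads could be shared between near copies: 33.0% of the 50-base stretches of Ly6c2 occur elsewhere, nearly all in Ly6c1, and 15.4% of those of Lyz2 in Lyz1, so the values of these members are uncertain to that extent. Ly6c1 was itself called lower in all 4 tables, at 3.58 to 7.83 TPM in T2 and 11.3 to 73.4 in T1, but in MPP4 at 3 months it turned to log2 0.24 after rescaling (adjusted p = 0.380). The sum of Ly6c2 and Ly6c1 moved by log2 -3.30 and -3.09 in MPP3 at 3 and 24 months and by -2.64 and -3.34 in MPP4. Lyz1 never passed a group mean of 4.23 TPM.

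The libraries labelled KOiMOS, of MPP3 at 3 months, gave another picture. Ly6c2, F13a1 and Clec12a were higher in T2, Lyz2 was lower, and Ly86, Csf1r and Ccr2 did not pass. Among 12100 genes 36.4% were called, 15.9% higher and 20.4% lower. Klf4 was too low to be tested, with 0.750, 0.872 and 0.926 TPM in T1 and 0.999, 0.960 and 1.28 in T2.

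Clec12a rose from 21.4, 19.5 and 19.0 TPM in T1 to 49.0, 49.9 and 44.7 in T2 (log2 1.22 ± 0.07, adjusted p = 8.32e-08). F13a1 rose from 17.01, 13.12 and 12.95 TPM to 33.3, 31.3 and 23.3 (log2 0.97 ± 0.15, adjusted p = 0.00128). Ly6c2 rose from 103, 95.7 and 102 TPM to 216, 172 and 170 (log2 0.88 ± 0.09, adjusted p = 8.56e-05). In these 3 genes every T2 library was above every T1 library, as either group was above the other for 49.3% of all genes.

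Lyz2 fell from 619, 595 and 590 TPM to 308, 327 and 323 (log2 -0.91 ± 0.04, adjusted p = 1.11e-08). Ly86 was 7.27, 9.56 and 9.21 TPM in T1 and 7.37, 8.76 and 6.22 in T2, overlapping (log2 -0.20, 95% interval -0.48 to 0.09, adjusted p = 0.257). Csf1r was 8.67, 7.42 and 7.20 TPM in T1 and 6.94, 6.87 and 5.62 in T2 (log2 -0.23, interval -0.48 to 0.01, adjusted p = 0.129). Ccr2 was 3.21, 2.51 and 3.95 TPM in T1 and 3.92, 3.98 and 3.43 in T2 (log2 0.19, interval -0.11 to 0.50, adjusted p = 0.313).

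The steps of KOiMOS and WTiMOS MPP3 at 3 months were then compared directly, by the difference of the log2 steps of the tables. Of 7 members tested, 6 had a higher step in KOiMOS, where 7.65% of 11363 genes did (22.2% called, 14.6% lower), and the members' median difference was log2 3.13 against -0.15 over all genes. The difference was 4.18 ± 0.37 for Ly6c2 (adjusted p = 0.00151), 3.71 ± 0.24 for Ly86 (2.39e-10), 3.57 ± 0.21 for F13a1 (2.89e-10) and 3.13 ± 0.19 for Clec12a (5.28e-09). For the receptors it was 2.58 ± 0.36 for Csf1r (adjusted p = 0.000139) and 2.31 ± 0.24 for Ccr2 (2.21e-07). Lyz2 fell in both, and its difference was log2 -0.08 (95% interval -0.24 to 0.07, adjusted p = 0.465). Ly86, Csf1r and Ccr2 thus differed between the tables without a called step in KOiMOS. Y-linked sums were 110 to 114 TPM in T1 and 55.3 to 61.2 in T2 of KOiMOS, against 64.2 to 78.9 and 33.8 to 58.5 in WTiMOS. The genotype label therefore cannot be told apart from this or from the table.

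**Figure D3:**
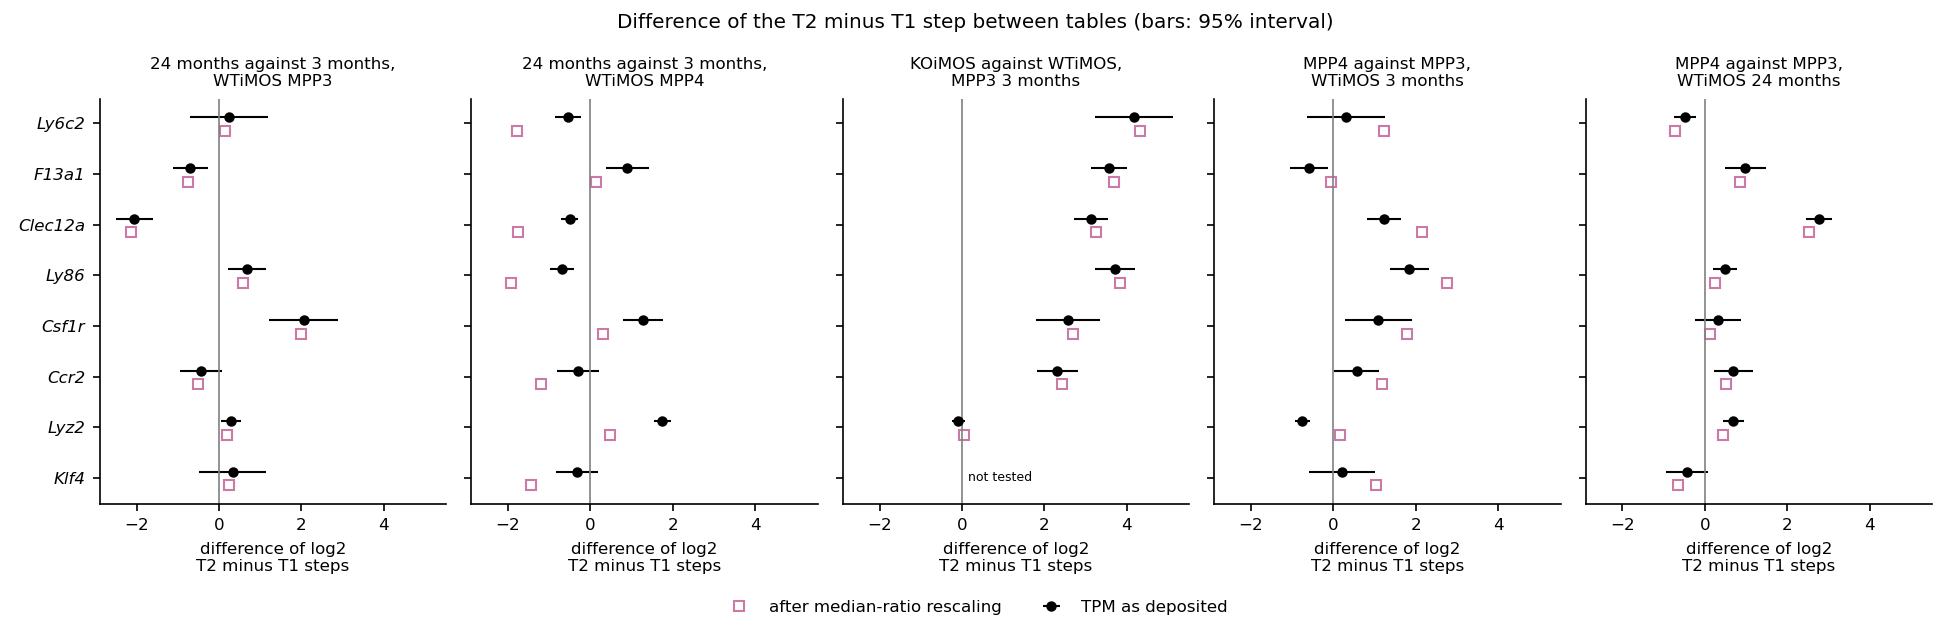
Difference of the log2 T2 minus T1 step between tables for each member, with 95% intervals (black) and the value after median-ratio rescaling (open squares). In the KOiMOS and WTiMOS panel 6 members lie between 2.31 and 4.18, Lyz2 lies at -0.08, and in the comparisons with MPP4 at 3 months the open squares are far from the black points.

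The step differed between the 24- and 3-month tables of WTiMOS MPP3 for 4 members, where 18.2% of 10796 genes were called (11.8% higher, 6.36% lower). The fall of Clec12a was deeper at 24 than at 3 months (difference of log2 steps -2.05 ± 0.22, adjusted p = 1.22e-06), as was that of F13a1 (-0.69 ± 0.21, adjusted p = 0.0221). The fall of Csf1r was shallower (2.05 ± 0.40, adjusted p = 0.00143), and so was that of Ly86 (0.68 ± 0.22, adjusted p = 0.0415). F13a1 lost its call when any of 6 of the 12 libraries was left out and Ly86 when any of 9 was (adjusted p 0.0519 to 0.0837 and 0.051 to 0.149). The call of Ly86 also ended with no filter on low values (adjusted p = 0.0906), after rescaling (0.0912) and in a fit of all 30 libraries (0.0691), and that of F13a1 in the last (0.122). Y-linked RNA of T1 was 64.2 to 78.9 TPM at 3 months and 0 at 24 months, so age cannot be told apart from this or from the table. Ly6c2, Ccr2, Lyz2 and Klf4 did not pass, with intervals of -0.71 to 1.20, -0.94 to 0.06, 0.05 to 0.53 and -0.47 to 1.13.

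In WTiMOS MPP4 the difference between ages depended on the scale, since the median gene's step differed by log2 1.20 and 87% of 11075 genes were called (79.2% higher, 7.81% lower). On deposited TPM the step was lower at 24 months for Ly6c2 (-0.55 ± 0.16, adjusted p = 0.00245), Ly86 (-0.68 ± 0.14, adjusted p = 0.000103) and Clec12a (-0.50 ± 0.10, adjusted p = 5.77e-05). It was higher for Lyz2 (1.74 ± 0.10, adjusted p = 4.85e-13), Csf1r (1.28 ± 0.24, adjusted p = 2.40e-05) and F13a1 (0.89 ± 0.25, adjusted p = 0.00236). After rescaling Ly6c2, Ly86 and Clec12a were lower by log2 -1.79, -1.93 and -1.77, Ccr2 and Klf4 were also called lower (-1.20 and -1.44), and Lyz2 alone was called higher (0.47, adjusted p = 0.00296). Ly6c2, Ly86 and Clec12a thus had the deeper fall at 24 months on both scales. Age cannot be told apart from the table here either.

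MPP4 and MPP3 were compared at each age. At 24 months, where 22.6% of 10968 genes were called (18% higher, 4.59% lower), Clec12a fell far less in MPP4 (difference of log2 steps 2.77 ± 0.15, adjusted p = 6.58e-10). The step was also higher in MPP4 for F13a1 (0.99 ± 0.24, adjusted p = 0.00537), Lyz2 (0.69 ± 0.12, adjusted p = 0.000459), Ccr2 (0.69 ± 0.22, adjusted p = 0.0294) and Ly86 (0.49 ± 0.14, adjusted p = 0.0153). Ly6c2 fell further in MPP4 (-0.48 ± 0.13, adjusted p = 0.0106). After rescaling Ly86 and Ccr2 were no longer called (adjusted p = 0.243 and 0.108), and the other 4 were. Without the third T1 library of MPP3 the calls of Ly6c2 and Ly86 were lost as well (adjusted p = 0.0526 and 0.0774), and that of Ccr2 was lost without any of 6 of the 12 libraries (adjusted p 0.0501 to 0.0918).

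At 3 months the median gene's step was log2 0.88 lower in MPP4 and 71.7% of 10781 genes were called (7.47% higher, 64.2% lower). Ly86, Clec12a and Csf1r had a higher step in MPP4 even so (1.84 ± 0.23, 1.22 ± 0.19 and 1.09 ± 0.38, adjusted p = 5.08e-07, 2.94e-05 and 0.0176). Csf1r lost its call without the third T1 library of MPP3 (adjusted p = 0.0512). F13a1 and Lyz2 were lower (-0.60 ± 0.23 and -0.76 ± 0.09, adjusted p = 0.0209 and 4.86e-08), but neither was called after rescaling (-0.05 and 0.17, adjusted p = 0.890 and 0.247). F13a1 also lost its call without the first T1 or the second T2 library of MPP3 (adjusted p = 0.0797 and 0.0564). Y-linked RNA of T1 at 3 months was 64.2 to 78.9 TPM in MPP3 and 0 in MPP4. Cell type therefore cannot be told apart from this or from the table.

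Other genes of the monocyte program were read from lists of 13 transcription factors and 22 surface and effector genes that hold no member. Of the factors tested, 4 of 8 were called lower in T2 of KOiMOS MPP3, and 7 of 11, 4 of 11, 9 of 11 and 4 of 11 in WTiMOS MPP3 at 3 and 24 months and MPP4 at 3 and 24 months. Called higher were 1 in KOiMOS, 2 in each 24-month table and 0 in the 3-month WTiMOS tables. Of all genes 20.4%, 5.96%, 12%, 72.6% and 7% were called lower in the same order, so the count in MPP4 at 3 months is near that of its table, and rescaling made it 6 lower and 2 higher. Irf8, a factor that directs progenitors to monocytes and dendritic cells, fell with the members at 3 months only on these calls: from 235 ± 5.45 to 55.3 ± 8.13 TPM in MPP3 (log2 -2.08, adjusted p = 1.95e-07) and from 29.0 ± 1.07 to 5.68 ± 1.26 in MPP4 (log2 -2.18, adjusted p = 1.05e-08). At 24 months it was 7.35 and 7.33 TPM in T1 and T2 of MPP3 (adjusted p = 0.933) and 15.7 and 19.1 in MPP4 (adjusted p = 0.0640), and in KOiMOS 31.9 and 36.1 (adjusted p = 0.0992, and 0.0414 and higher after rescaling). The difference of Irf8 between ages was not tested. Klf6 and Nr4a1 were called lower in all 5 tables, as was Zeb2, named after its values were seen. Irf5 was called higher in KOiMOS and in both 24-month tables, and lower in both 3-month WTiMOS tables. Its step in MPP3 at 24 months was log2 1.54 after rescaling (adjusted p = 2.6e-05). On deposited TPM Egr1 was called higher in both 24-month tables and lower in the others.

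Surface and effector genes were lower in 9 of 20 tested for KOiMOS MPP3 (4 higher), in 12 of 20 (1 higher) and 10 of 18 (3 higher) for WTiMOS MPP3 at 3 and 24 months, and in 11 of 17 (1 higher) and 6 of 18 (6 higher) for MPP4. The share lower in MPP4 at 3 months was no larger than the 72.6% of all genes, and the 6 higher at 24 months stand beside 58.2% of all genes called higher there. In MPP4 at 3 months rescaling left 5 lower and 4 higher, and at 24 months 8 lower and 3 higher of 17. Their medians on deposited TPM were log2 -0.02, -1.15, -0.77, -0.63 and -0.14 in that order, beside -0.04, 0.10, 0.18, -0.74 and 0.43 over all genes. Ms4a6c, a membrane protein gene of monocytes, was lower in every table, most in MPP3 at 3 months (365 ± 17.6 to 68.3 ± 17.1 TPM, log2 -2.43, adjusted p = 5.17e-07). Fcgr3 went the other way in KOiMOS and in WTiMOS MPP3 at 3 months, called higher in T2 (log2 1.52 and 1.86 after rescaling). Cx3cr1 was called higher in KOiMOS and lower in WTiMOS MPP3 at 3 months. On deposited TPM Tlr2 and Tlr4 were called higher in T2 of both 24-month tables.

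Ligands and partners of the members gave mixed results. Csf1, the ligand of Csf1r, was tested in the MPP3 tables of 3 months only, and was lower in KOiMOS T2 (8.66 to 5.72 TPM, log2 -0.51, adjusted p = 0.00361). Ccl2, the ligand of Ccr2, went from 2.94 to 65.2 TPM between T1 and T2 of KOiMOS (log2 4.16, adjusted p = 0.0013) and from 21.3 to 51.7 in WTiMOS MPP3 at 24 months (log2 1.23, adjusted p = 0.000106). Ly96, a relative of Ly86 that serves Toll-like receptor 4, was higher in T2 in all 4 WTiMOS tables, by log2 0.38 to 1.51, but in MPP4 at 24 months it turned to -0.05 after rescaling (adjusted p = 0.809). Cd180, the partner of Ly86, was higher in KOiMOS T2 (10.9 against 3.86 TPM, log2 1.30, adjusted p = 1.19e-05). On deposited TPM Cd180 was also called higher in T2 of WTiMOS MPP4 at 24 months, as were 58.2% of all genes there.

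**Figure D4:**
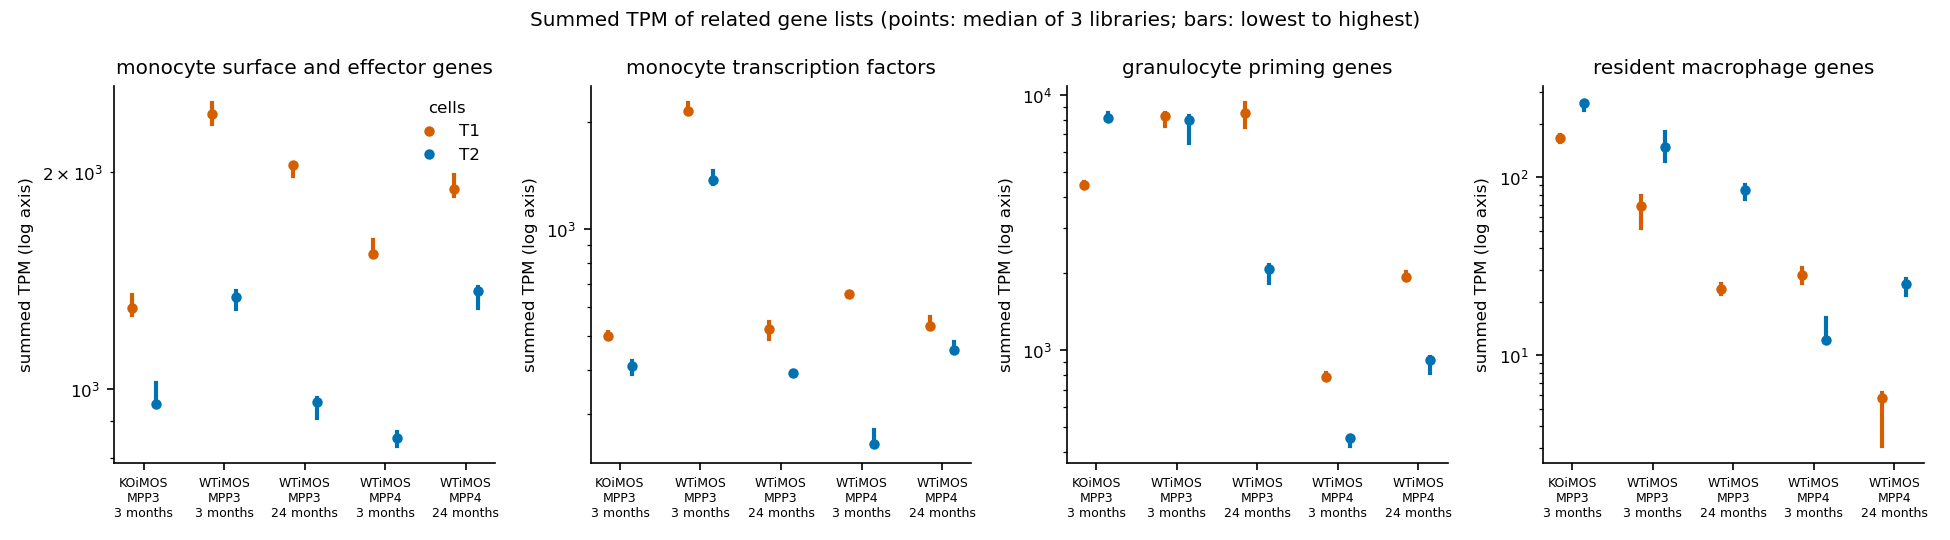
Summed TPM (log axis) of 4 gene lists in T1 (orange) and T2 (blue), as the median of 3 libraries with a bar from lowest to highest. On deposited TPM both monocyte sums are lower in T2 in every table, while resident macrophage genes are higher in T2 in every table but MPP4 at 3 months.

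RNA of other cell types moved with T1 and T2 as well. The 11 resident macrophage genes, markers of cells that are known to express Csf1r and Lyz2, summed to a median of 165 TPM (T1) and 260 (T2) for KOiMOS, 68.8 and 148 in WTiMOS MPP3 at 3 months, 23.5 and 84.7 at 24 months, and 5.80 and 25.0 in MPP4 at 24 months. At 3 months MPP4 went from 28.4 down to 12.2. They were called higher in 8 of 10, 6 of 8, 7 of 8 and 6 of 7 tested in the first 4 of these tables, beside 15.9%, 8.39%, 30% and 58.2% of all genes, and none were in MPP4 at 3 months (4 of 7 lower, and 2 of 6 lower with 1 higher after rescaling). Rescaling gave 5 of 8 higher in MPP3 at 3 months and 5 of 7 in MPP4 at 24 months. C1qb, a complement subunit made by macrophages, was 1.80 ± 0.0828 TPM in T1 and 24.2 ± 5.37 in T2 of MPP3 at 24 months (log2 3.14, adjusted p = 2.03e-07). Adgre1, of the same list, went the other way and was called lower in T2 of both WTiMOS MPP3 tables. After rescaling its steps were log2 -1.66 and -1.51 at 3 and 24 months (adjusted p = 0.00245 and 6.22e-05). So Csf1r and Lyz2 fell in the WTiMOS MPP3 tables beside a rise of most of the macrophage genes tested, whose part in the result was not tested.

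Granulocyte priming genes, a neighbouring myeloid program, moved in both directions in every table. Mpo, the myeloperoxidase of primary granules, was higher in T2 of WTiMOS MPP3 at 3 months (4238 against 2190 TPM, log2 0.95) and 24 months (log2 0.53) and of MPP4 at 24 months (log2 0.81). In MPP4 at 3 months Mpo was lower on deposited TPM (log2 -0.80), but 0.01 and not called after rescaling (adjusted p = 0.971). Ctsg and Prtn3, proteases of the same granules, were lower in all 4 WTiMOS tables (log2 -0.84 to -2.19 and -0.67 to -1.36), though after rescaling neither was called in MPP4 at 3 months, where Prtn3 turned to log2 0.15 (adjusted p = 0.266) and Ctsg was -0.21 (adjusted p = 0.0666). In KOiMOS 7 of 9 granulocyte genes were higher and 2 lower, beside the rise of Ly6c2, F13a1 and Clec12a and 15.9% of all genes called higher. Mast cell and basophil genes were higher there in 5 of 7 (median sum 411 TPM in T1, 2346 in T2), erythroid genes in 6 of 7 (74.3 and 479) and proliferation genes in 6 of 6, and their part in the rise was not tested. On deposited TPM erythroid genes were also called higher in T2 of WTiMOS MPP3 at 3 and 24 months (4 of 6 and 5 of 7). In MPP4 they were in 3 of 3 and 1 of 2, and none was lower in these 4 tables. The shares of all genes called higher were 8.39%, 30%, 8.71% and 58.2%. After rescaling erythroid genes were higher in 2 of 6, 4 of 7, 3 of 3 and 1 of 2, with 1 lower in MPP4 at 24 months. Mast cell and basophil genes were called higher on deposited TPM in 2 of 7, 5 of 7, 1 of 3 and 1 of 3 in the same order, with 1, 2, 2 and 2 lower. Rescaling made this 3 of 4 higher and 0 lower in MPP4 at 3 months, and 0 of 3 higher and 2 lower at 24 months. No proliferation gene was called higher there on deposited TPM, and 1, 4, 5 and 4 of 6 were lower. Of all genes 5.96%, 12%, 72.6% and 7% were lower. Rescaling gave 2 proliferation genes higher and 2 lower in MPP4 at 3 months. The 10 mature neutrophil genes summed to 2287 TPM in T1 and 406 in T2 of MPP3 at 24 months, and to 23.9 and 40.6 in KOiMOS. In WTiMOS MPP3 at 3 months they ranged from 43.3 to 300.3 TPM in T1 and from 24.4 to 529 in T2, with 1 T2 library far above the median of 34.9. In MPP4 the medians were 541 and 354 at 3 months and 160 and 128 at 24 months, and their part in the values of Ly6c2 and Lyz2 was not tested. The 9 tested B lineage genes of WTiMOS MPP3 at 3 months were all lower in T2 (median log2 -2.28), so the fall of the members there was not confined to monocyte genes.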

How the data were processed

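The authors deposited TPM per gene, in 5 tables of 6 libraries, and per the submitters' processing notes HISAT2, StringTie, featureCounts and DESeq2 were used against mm10, with no statement of which gave the TPM. Per the labels' protocols the RNA was amplified as cDNA before sequencing. The members and all gene lists were chosen with earlier results of these data known. Groups came from the sample titles, and 0 columns were left unmapped.

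Each table was fitted alone in R 4.3.3 with limma 3.58.1 on log2(TPM + 1), with trend and robust moderation, for genes of at least 1 TPM in at least 3 of 6 libraries. P-values were adjusted by Benjamini and Hochberg over all genes tested, with a call under 0.05. Differences of steps used the variances of both tables and Satterthwaite degrees of freedom. A log2 change understates genes near 0. Labels do not say that replicates are separate animals, so p-values measure the spread between libraries, which may be technical. On simulated data 200 better-expressed genes a table were changed, up or down at random, and the median gene was not shifted. The false share of calls there was 3.70% to 7.05% for steps and 4.80% to 7.89% for differences, above 5% in 6 of 10 fits. Of log2 changes of 0.5, 19.4% and 25.4% were recovered in WTiMOS MPP3 at 3 and 24 months. In the data 14.3% to 81.3% of genes were called and the median gene of MPP4 was shifted, so these shares need not hold for them.

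Named were the 8 members, up to 4 genes of smallest adjusted p per list and table, all sort markers, partners and Y-linked genes, Bcl11a, and the 3 genes most alike in pattern to each member among those of at least 5 TPM in a group; some results under this rule are not reported here. Alternatives were no filter on low values, a pseudocount of 0.1, rescaling of libraries by median ratios, a single fit of all 30 libraries, a block for the replicate number, leaving out any library and, chosen after seeing the data, a correction for GC and length.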

Additional observations from a re-analysis of the deposited data

Results flagged for a closer look

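The T2 against T1 step differed between tables, by the test of the difference itself, in 27 of 39 tests of members. Of all genes, 22.2%, 18.2%, 87%, 71.7% and 22.6% were called in the 5 contrasts, in the order given here. In the third and the fourth a call without its direction thus says little about a member. Called higher and lower were 79.2% and 7.81% of genes in the third, and 7.47% and 64.2% in the fourth. Values are differences of log2 steps.

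In MPP3 at 3 months, KOiMOS less WTiMOS, Ly6c2 gave 4.18, F13a1 3.57, Clec12a 3.13, Ly86 3.71, Csf1r 2.58 and Ccr2 2.31. In these 6 genes the WTiMOS cells fell and the libraries labelled KOiMOS rose or did not pass.

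In WTiMOS MPP3, 24 less 3 months, F13a1 gave -0.69, Clec12a -2.05, Ly86 0.68 and Csf1r 2.05. Clec12a and Csf1r moved by about the same amount in opposite directions. In WTiMOS MPP4 the same contrast gave -0.55 for Ly6c2, 0.89 for F13a1, -0.50 for Clec12a, -0.68 for Ly86, 1.28 for Csf1r and 1.74 for Lyz2, beside 1.20 for the median gene.

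For MPP4 less MPP3 at 3 months, F13a1 gave -0.60, Clec12a 1.22, Ly86 1.84, Csf1r 1.09 and Lyz2 -0.76, beside -0.88 for the median gene. At 24 months Ly6c2 gave -0.48, F13a1 0.99, Clec12a 2.77, Ly86 0.49, Ccr2 0.69 and Lyz2 0.69. Clec12a was the member with the largest difference there, and had the larger step in MPP3 at both ages.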

How the results depend on the processing

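Rescaling changed the split of calls higher and lower in T2 from 983 and 699 to 551 and 898 (MPP3 at 3 months), 3394 and 1358 to 2113 and 2137 (MPP3 at 24 months), 983 and 8193 to 2891 and 2994 (MPP4 at 3 months) and 6611 and 796 to 1667 and 2185 (MPP4 at 24 months). Genes called in MPP4 fell from 9176 to 5885 at 3 months (5670 with the GC and length trend removed) and from 7407 to 3852 (3300) at 24 months. For the differences of steps, genes called went from 9640 to 5811 (5410) for age in MPP4, and from 7726 to 4425 (4155) for MPP4 against MPP3 at 3 months. Calls higher and lower in these differences went from 8775 and 865 to 3142 and 2669, from 805 and 6921 to 2092 and 2333, from 1978 and 503 to 817 and 1208 (MPP4 against MPP3 at 24 months), from 1279 and 687 to 969 and 918 (age in MPP3) and from 869 and 1654 to 1216 and 937 (KOiMOS against WTiMOS).

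With no filter WTiMOS MPP3 at 3 months had 1056 genes called, against 1682, and 933 to 2197 with a library left out, the lowest without the first T1 library. Leaving out a library gave 1263 to 2306 genes for age in MPP3 and 1505 to 2909 for MPP4 against MPP3 at 24 months, both lowest without the third T1 library of MPP3 at 24 months. Members called ranged from 5 to 8 in MPP4 at 3 months (5 without the first or second T1 library, where F13a1 and Ccr2 then missed the filter), from 2 to 4 for age in MPP3 (2 in one fit over all libraries) and from 3 to 6 for MPP4 against MPP3 at 24 months.

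Signs reversed in these cases. After rescaling, MPP4 steps were 0.14 for Clec12a and 0.26 for Klf4 at 3 months and -0.29 for Lyz2 at 24 months, and differences for Lyz2 were 0.054 (KOiMOS against WTiMOS) and 0.17 (MPP4 against MPP3 at 3 months). With the GC and length trend removed, Klf4 in MPP4 at 3 months was 0.68, differences by age in MPP4 were -0.36 for F13a1 and -0.26 for Csf1r, and MPP4 against MPP3 at 3 months gave 0.33 for F13a1. A pseudocount of 0.1 gave Ccr2 0.074 (age in MPP4) and -0.048 (MPP4 against MPP3 at 3 months). Without the third T2 library of MPP3 at 3 months, Ly6c2 gave -0.13 (age in MPP3) and -0.065 (MPP4 against MPP3), and Klf4 gave -0.054 in the latter without the first T1 library, with highest values of 0.46, 0.53 and 0.57 when other libraries were left out. The cause was not tested.

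The replicate numbers gave no sign of pairing the libraries: of 15 pairs with 1 number, 1 correlated over 0.1 (range -0.20 to 0.13). Pairs with unlike numbers reached 0.16. With 3 libraries a group this check cannot exclude pairing. The replicate block changed no call of a member's step, and of the differences it lost Ly86 and Ccr2 in MPP4 against MPP3 at 24 months (adjusted p = 0.0506 and 0.0648). Depth is unknown, so the precision of the low members Klf4, Csf1r and Ccr2 rests on 3 libraries a group.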
